A study of Mus musculus with 6 samples.

Results

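The genes described here bear on the action of etoposide in a cell: the topoisomerases (Top2a and Top2b, which it traps, and Top1, which it does not), the enzymes that take trapped topoisomerase off DNA (Tdp1, Tdp2 and Mre11a) and the pumps that export drugs (Abcb1a, Abcb1b, Abcc1 and Abcg2). They were picked by name and function, by a rule that used no measured value but with earlier results of these data known, and all 10 were found among the 16894 genes listed. Expression was measured by RNA-seq in fibroadipogenic progenitors (FAPs), mesenchymal cells of skeletal muscle, in 3 control and 3 senescent libraries. The cells came from C57BL/6 mice of 3 to 6 months and were sorted from hindlimb muscle with magnetic beads as negative for CD45, CD31 and α7-integrin and positive for SCA-1, then grown as primary cultures. Senescent FAPs had received 20 μM of etoposide for 48 h and then 5 days of normal medium. Control FAPs are labelled non-senescent, and how long they were cultured, or whether they received vehicle, is not given in the sources used here. The RNA was therefore taken 5 days after the drug was removed, and drug exposure and the senescent state cannot be told apart in this design.

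Type II topoisomerases untangle DNA by cutting both strands, passing another duplex through the gap and sealing it, and etoposide traps the enzyme while it is still bound to the cut ends. TOP2A is made by dividing cells and separates sister chromatids, whereas TOP2B is also made by cells that no longer divide. A trapped enzyme leaves a protein adduct on DNA that must be removed before the break can be joined, and pumps of the ABC family lower the amount of drug inside the cell.

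In the GENCODE M21 annotation of GRCm38 (mm10), the topoisomerase genes lie at chr11:98992943-99024189 on the minus strand (Top2a), chr14:16365179-16435462 on the plus strand (Top2b) and chr2:160645888-160722764 on the plus strand (Top1). The repair genes, all on the plus strand, lie at chr12:99884517-99955219 (Tdp1), chr13:24831679-24842153 (Tdp2) and chr9:14784654-14837123 (Mre11a, now named Mre11). Abcb1a (chr5:8660077-8748575) and Abcb1b (chr5:8798147-8866315), the pair of mouse genes that encode P-glycoprotein, are neighbours on the plus strand with 49571 bases between them. Abcc1 lies at chr16:14361558-14475737 and Abcg2 at chr6:58584523-58695676, both on the plus strand. Antisense genes overlap Top2a (Gm26394), Top2b (Gm48163 and Rarb), Mre11a (Ankrd49 and Gm47154), Abcb1a (Gm42686) and Abcb1b (Gm5106). Genes on the same strand overlap Top2a (Gm23451), Tdp1 (Gm48147), Abcb1a (Gm42684), Abcb1b (7330423F06Rik) and Abcc1 (Gm23116). The sources used here do not say if the counting was stranded or how overlaps were handled. Reads of these partners may thus be included in the values.

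The promoters of the topoisomerase II genes and of the P-glycoprotein genes are shown because the members of each pair had unlike values in these cells. RefSeq start sites of GRCm38.p6 matched 8 of the 10 genes, with no entry for Tdp2 and Abcc1. Each sequence is the 250 bases upstream of a start site, read on the gene's own strand: chr11:99024190-99024439 (minus) for Top2a, chr14:16364956-16365205 (plus) for Top2b, chr5:8566841-8567090 (plus) for Abcb1a and chr5:8797897-8798146 (plus) for Abcb1b. Capitals mark 3 motifs searched on both strands: CCAAT (or ATTGG), the box that NF-Y binds, TTTGAA (or TTCAAA), the element known from promoters of late cell cycle genes, and GGGCGG (or CCGCCC), the GC box. No capitals of different motifs overlap. The start site used for Abcb1a lies 92986 bases upstream of the gene start in GENCODE M21, so its window is that of an upstream start.
Top2a: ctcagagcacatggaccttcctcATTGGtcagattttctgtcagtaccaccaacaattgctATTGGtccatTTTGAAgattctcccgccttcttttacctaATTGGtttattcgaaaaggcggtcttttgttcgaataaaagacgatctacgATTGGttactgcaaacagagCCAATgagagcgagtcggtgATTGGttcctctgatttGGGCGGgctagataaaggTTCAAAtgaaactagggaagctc
Top2b: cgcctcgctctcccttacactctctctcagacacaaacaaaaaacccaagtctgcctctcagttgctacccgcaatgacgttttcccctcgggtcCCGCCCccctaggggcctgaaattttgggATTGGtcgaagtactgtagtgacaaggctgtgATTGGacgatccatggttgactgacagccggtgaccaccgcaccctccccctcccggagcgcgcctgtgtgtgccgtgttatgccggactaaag
Abcb1a: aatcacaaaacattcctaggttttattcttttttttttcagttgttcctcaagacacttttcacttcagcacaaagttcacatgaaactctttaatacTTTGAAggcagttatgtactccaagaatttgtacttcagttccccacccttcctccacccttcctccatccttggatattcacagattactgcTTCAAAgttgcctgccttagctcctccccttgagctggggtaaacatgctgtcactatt
Abcb1b: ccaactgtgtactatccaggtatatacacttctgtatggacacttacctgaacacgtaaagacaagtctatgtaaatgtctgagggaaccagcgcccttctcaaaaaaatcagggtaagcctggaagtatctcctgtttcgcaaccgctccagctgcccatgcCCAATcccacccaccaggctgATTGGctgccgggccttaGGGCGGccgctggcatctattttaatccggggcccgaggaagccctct

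Upstream of Top2a, CCAAT was found 6 times, TTTGAA 2 times and GGGCGG 1 time. Matches to CCAAT numbered 6 or more in 19 of 32851 promoters of the same length (0.0578%), and at least 1 match in 33.9%. TTTGAA was present in 16.0% and GGGCGG in 32.7% of all promoters. The shares depend on the background: over the 12994 promoters of tested genes, 13 (0.1%) held 6 or more CCAAT and 35.1% at least 1, while TTTGAA was present in 10.5% and GGGCGG in 56.8%. Upstream of Top2b there were 2 CCAAT, no TTTGAA and 1 GGGCGG, and the Abcb1b window held the same numbers of each motif. The Abcb1a window held 2 TTTGAA and neither of the other motifs. These matches describe the letters only; binding was not measured.

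Each value is CPM, read counts relative to a library size that includes the authors' scaling between libraries, and rests on 41412179 to 59912520 reads on genes per library. Of the sorted-cell markers, the FAP markers Pdgfra, Ly6a, Cd34 and Dcn were present in every library. Of 8 such markers 4 rose (Ly6a, Cd34, Dcn and Lum) and 1 fell (Col1a1, log2 fold change −2.29, limma adjusted p = 0.00150). Pdgfra, Col3a1 and Pdgfrb did not pass the test, though Pdgfrb was lower in every senescent library than in any control library. Lum had only 0.179, 0.475 and 0.951 CPM in control. Ptprc (CD45), Emcn, Cldn5, Pax7 and Myod1 were not among the genes listed. Of the genes sorted against, Pecam1 (CD31) had 0.625, 1.03 and 0.467 CPM in control and 1.59, 1.87 and 1.64 CPM in senescent FAPs (log2 fold change 0.89, limma adjusted p = 0.00897). These values rest on 26 to 112 reads per library, and the log2 fold change ranged from 0.62 to 1.31 over the alternative fits. Itga7 (α7-integrin) had 9.17, 12.3 and 11.9 CPM in control and 15.7, 21.4 and 23.6 CPM in senescent FAPs (0.83, limma adjusted p = 0.00771). Both were thus detected, Pecam1 at much lower values than Itga7, and both were higher in every senescent library than in any control library. The 5 leukocyte markers listed summed to 9.17 to 12.2 CPM in control and 21.1 to 26.3 CPM in senescent FAPs. Of 4 tested, 3 rose: Cd53 (log2 fold change 2.42), Cd68 (1.43) and Itgam (1.11, with at most 0.067 CPM in control). Csf1r did not pass the test. The 4 myogenic markers listed summed to 15.2 to 19.5 CPM in control and 24.6 to 31.7 CPM in senescent FAPs, where 1 of 3 tested (Itga7) rose. The 5 endothelial markers summed to 20.4 to 41.3 and 24.2 to 31.7 CPM, and of 4 tested Pecam1 rose and Kdr fell (−0.74, limma adjusted p = 0.00989). The 6 pericyte markers summed to 285 to 396 CPM in control and 235 to 267 CPM in senescent FAPs, and of 5 tested 2 rose (Rgs5 and Notch3) and 2 fell (Cspg4 and Mcam). Beside these counts, 21.8% of all genes tested rose and 24.3% fell. The part of these cell types in the values below was not tested. Control replicate 2 stood apart in the genes of cell division described beside Top2a.

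Across the 10 genes, Top2a fell the furthest and Abcb1a was the 1 gene that rose. Differences between groups are log2 fold changes on log2(CPM + 0.5), senescent minus control, from limma, and a gene is said to have risen or fallen where its Benjamini-Hochberg adjusted p over all tested genes was under 0.05. In addition to Top2a, Top1, Tdp1, Mre11a and Abcc1 fell by small amounts, and Top2b, Tdp2, Abcb1b and Abcg2 did not pass the test. Thus 6 of 10 genes were called, against 46.1% of the 14776 genes tested; 1 rose (21.8% of all genes) and 5 fell (24.3% of all genes). The median log2 fold change was −0.21 over the 10 genes and −0.03 over all genes, and the median size without sign was 0.33 and 0.34. The count of 5 that fell was 2 without senescent replicate 2 and 3 without control replicate 3, and 1 when CPM was divided by library totals alone, a scaling that moves the median of all genes from −0.03 to 0.17. The groups did not overlap for Abcb1a and Abcb1b, both higher, and for Top2a, Top1, Tdp1 and Mre11a, all lower. Over all genes, groups were apart for 57.4% (26.5% higher and 30.9% lower).

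**Figure D1:**
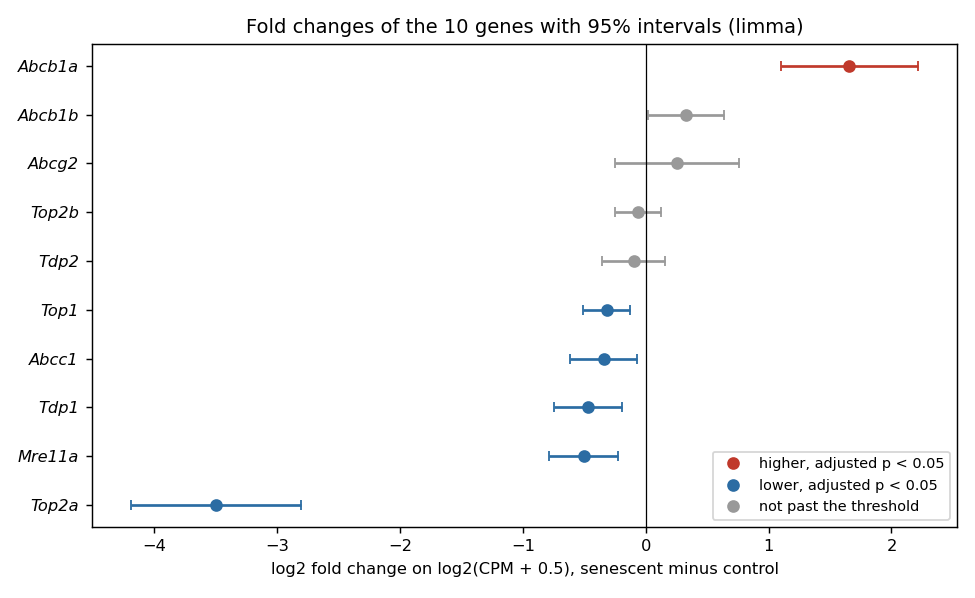
Log2 fold changes of the 10 genes on the log2(CPM + 0.5) scale (x axis, senescent minus control) with 95% confidence intervals from limma; red marks genes that rose, blue genes that fell and grey genes that did not pass the threshold. Top2a stands at −3.50 and Abcb1a at 1.66, and the other 8 genes lie between −0.50 and 0.33.

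Top2a, the target of etoposide in dividing cells, had 135, 276 and 126 CPM in control replicates 1, 2 and 3 and 18.6, 12.7 and 12.6 CPM in senescent replicates 1, 2 and 3. The lowest control library was thus far above the highest senescent library, although control replicate 2 held 2.11 times the mean of the other control libraries. The mean was 179 ± 83.8 CPM in control and 14.6 ± 3.43 CPM in senescent FAPs (SD, n = 3 each), so that 8.17% of the control level was left, a 12.2-fold difference of the means. The log2 fold change was −3.50 (SE 0.30, 95% interval −4.19 to −2.81, adjusted p = 2.52e-04 in limma with Benjamini-Hochberg adjustment). Only 5 of the 14776 genes tested (0.0338%), Top2a among them, were as low or lower. Without control replicate 2 the log2 fold change was −3.14. In bulk RNA, fewer cells of a kind and less RNA per cell cannot be told apart, so these values do not say whether fewer cells made Top2a or each cell made less.

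Top2b, which encodes the other enzyme that etoposide traps, had 105, 119 and 117 CPM in control and 103, 107 and 116 CPM in senescent FAPs. The groups overlapped, and every library lay within a narrow range. The means were 113 ± 7.75 and 109 ± 6.56 CPM (SD, n = 3 each). The log2 fold change was −0.06 (SE 0.08, 95% interval −0.25 to 0.13, limma adjusted p = 0.550); it was 0.15 with library totals and 0.04 with quantile normalization, so its sign depended on the scaling.

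Set against each other within a library, where scaling between libraries cancels, the pair of targets changed places. Per base of the longest coding transcript, Top2a was 2.56, 4.58 and 2.15 times Top2b in control replicates 1, 2 and 3, and 0.358, 0.234 and 0.216 times Top2b in senescent replicates 1, 2 and 3. All 3 control libraries had more Top2a than Top2b, and all 3 senescent libraries had less. The log2 ratio of the CPM values went from 0.56 ± 0.57 to −2.87 ± 0.38 (SD, n = 3 each), a difference of −3.43 with p = 0.1 (two-sided exact permutation test; adjusted p = 0.1 over 4 ratios). With 3 libraries against 3, 0.1 is the smallest p this test can give. Over coding sequence the genes are 71.9% identical and share no stretch of 50 bases, the window length used here to look for reads that could fit both.

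Top1, which cuts a single strand and is not the target of etoposide, had 79.6, 94.2 and 86.7 CPM in control and 68.9, 66.7 and 72.7 CPM in senescent FAPs. The senescent libraries were all below the lowest control library, by a small margin. The means were 86.8 ± 7.28 and 69.4 ± 3.07 CPM (SD, n = 3 each). Top1 fell by a log2 fold change of −0.32 (SE 0.08, 95% interval −0.51 to −0.12, limma adjusted p = 0.0172). The call was lost with library totals (−0.11, adjusted p = 0.348), with quantile normalization, and without control replicate 3 (adjusted p = 0.0539) or senescent replicate 2 (adjusted p = 0.0739), and the adjusted p of limma, edgeR and DESeq2 ranged from 0.0136 to 0.348 over 16 alternatives.

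**Figure D2:**
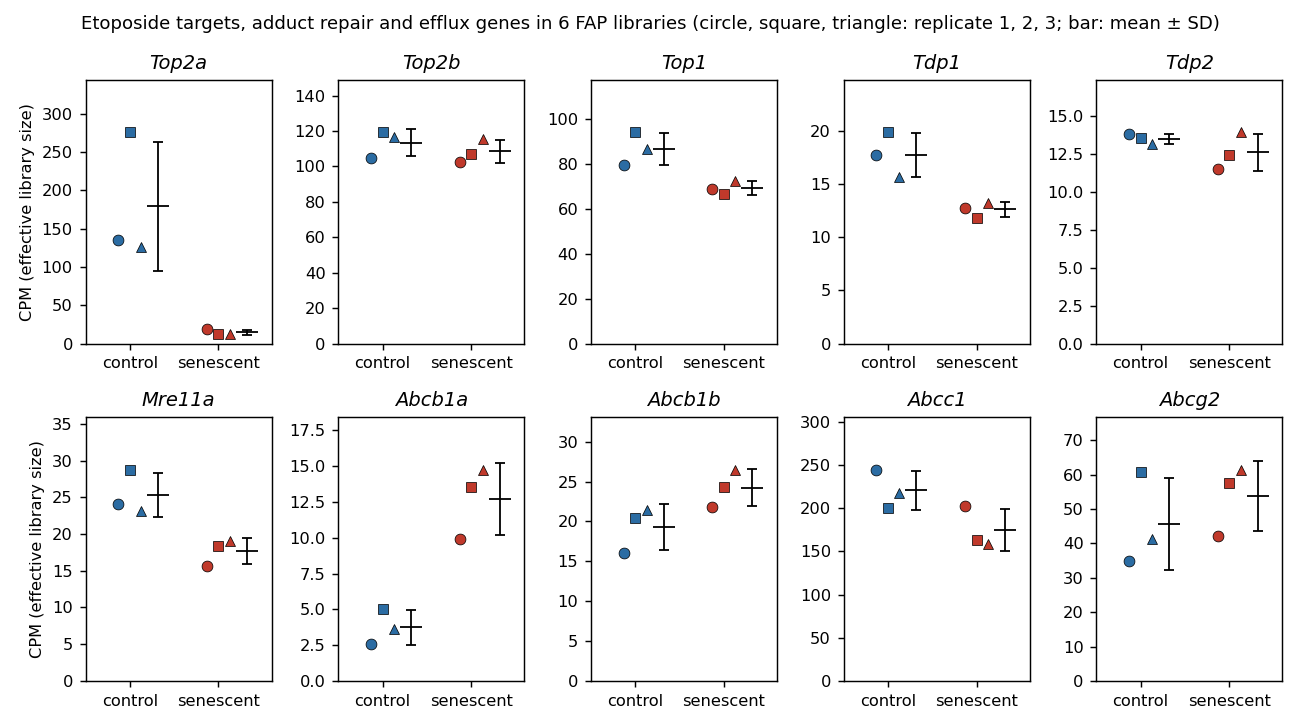
CPM of each of the 10 genes (y axes, each from 0) in control (blue) and senescent (red) FAPs; circle, square and triangle are replicates 1, 2 and 3, and the bar is the mean with its SD. Top2a dropped from 126 to 276 CPM in control to 12.6 to 18.6 CPM in senescent libraries, Abcb1a went from 2.59 to 5.04 to 9.91 to 14.7 CPM, and the groups of Top2b, Tdp2, Abcc1 and Abcg2 overlap.

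Because TOP2A is itself a protein of dividing cells, its values were set beside those of 20 genes of mitosis, such as cyclins, mitotic kinases and spindle proteins. All 20 fell, beside 24.3% of all genes, with log2 fold changes from −3.84 to −2.06 and a median of −2.72. Among those with the smallest p were Ccna2, a cyclin (−3.84), Plk1, a mitotic kinase (−3.51), and Aurkb, a kinase of chromosome segregation (−2.63), with limma adjusted p = 2.69e-04, 3.33e-04 and 4.42e-04. Top2a fell more than 17 of the 20 genes and less than 3 (Ccna2, Mki67 and Plk1).

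The same libraries were high for both. The 20 genes summed to 764, 1579 and 646 CPM in control replicates 1, 2 and 3 and to 169, 110.0 and 109 CPM in senescent replicates 1, 2 and 3. Each of the 20 was highest among controls in replicate 2, at 1.86 to 2.62 times the mean of the other control libraries, and highest among senescent libraries in replicate 1, as Top2a was. Within a library, the log2 ratio of Top2a to the mean of the 20 genes was 2.10 ± 0.09 in control and 1.43 ± 0.04 in senescent FAPs (SD, n = 3 each), and the groups did not overlap. The difference was −0.67, with p = 0.1 in the two-sided exact permutation test (adjusted p = 0.1 over 4 ratios), the smallest it can give. The size of the difference depended on the pseudocount: it was −0.59 with 0.1 and −0.75 with 1. Of the 16 mitotic genes with a RefSeq promoter, 14 (87.5%) held CCAAT in the upstream 250 bases and 6 (37.5%) held TTTGAA, beside 35.1% and 10.5% of the promoters of tested genes and 33.9% and 16.0% of all promoters. GGGCGG was held by 11 (68.75%), beside 56.8% of the promoters of tested genes and 32.7% of all promoters.

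**Figure D3:**
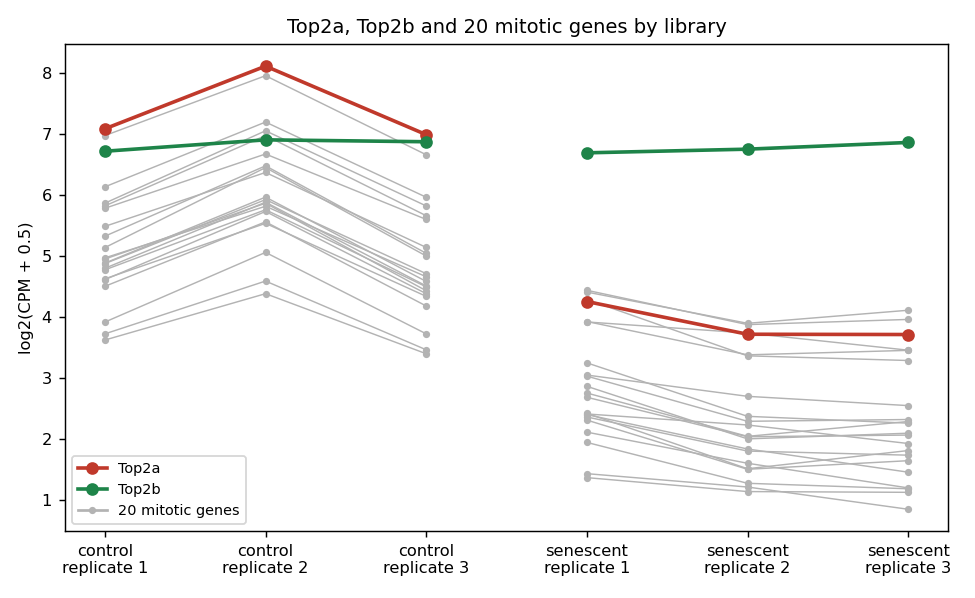
Log2(CPM + 0.5) of Top2a (red), Top2b (green) and 20 genes of mitosis (grey) in each of the 6 libraries on the x axis; lines join the libraries of a group only to let a gene be followed. Top2a and all 20 grey genes peak in control replicate 2 and drop in the senescent libraries, whereas Top2b lies between 103 and 119 CPM throughout.

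Over the 6 libraries, the genes whose log2(CPM + 0.5) was most like that of Top2a were Ercc6l, a DNA translocase of mitosis (Pearson r = 0.9997), Mrto4, a factor of ribosome assembly (r = 0.9995), and Clspn, an adaptor of the replication checkpoint (r = 0.9993). Such likeness was common, since 1306 genes had r over 0.95, and with 3 libraries in each group most of r follows from the difference between the groups. Mrto4 had a log2 fold change of only −0.63, with 38.7, 43.5 and 37.6 CPM in control and 27.0, 25.1 and 24.7 CPM in senescent libraries, so a high r does not mean a change of the same size.

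Other topoisomerases and their partners showed 1 rise. Of 7 genes, Spo11 was not among the genes listed and Rmi2, a partner of topoisomerase III, was below the filter on low values. Rmi2 had 0.603, 0.875 and 0.395 CPM in control and 0.0993, 0.0335 and 0.0225 CPM in senescent FAPs, with the groups apart. Of the remaining 5, 1 rose, none fell and 4 did not pass the test in limma, beside 21.8% and 24.3% of all genes that rose and fell. When no filter was used, 1 gene of the list fell. Top3b, which untangles DNA and RNA, had 45.5, 40.9 and 44.7 CPM in control and 55.8, 56.8 and 51.5 CPM in senescent FAPs, with no overlap. Its log2 fold change was 0.32 (limma adjusted p = 0.0138; 0.0647 without senescent replicate 2, within a range of 0.00109 to 0.0647 over the alternatives). Top3a, its mitochondrial and nuclear relative, was at −0.35 (limma adjusted p = 0.0700; 0.0362 without control replicate 2, the lowest over the alternatives), and its partner Rmi1 was at −0.09 (limma adjusted p = 0.663).

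The enzymes that free DNA of a trapped topoisomerase were lower or little changed. Tdp2, the phosphodiesterase that releases topoisomerase II, had 13.8, 13.5 and 13.2 CPM in control and 11.5, 12.4 and 13.9 CPM in senescent FAPs. The groups overlapped, and the highest of the 6 values was that of senescent replicate 3. The log2 fold change was −0.10 (SE 0.11, 95% interval −0.35 to 0.15, limma adjusted p = 0.487) and 0.11 with library totals.

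Tdp1, the phosphodiesterase best known for releasing topoisomerase I, had 17.7, 19.8 and 15.6 CPM in control and 12.7, 11.8 and 13.3 CPM in senescent FAPs, with every senescent library below every control library. The means were 17.7 ± 2.11 and 12.6 ± 0.713 CPM (SD, n = 3 each). Tdp1 fell by a log2 fold change of −0.47 (SE 0.12, 95% interval −0.74 to −0.20, limma adjusted p = 0.0146). The call was lost with library totals (−0.26, adjusted p = 0.104) and without senescent replicate 2 (adjusted p = 0.0628), and the adjusted p ranged from 0.00483 to 0.104 over the alternatives in limma, edgeR and DESeq2.

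The log2 ratio of Tdp1 to Tdp2 within a library was 0.37 ± 0.15 in control and 0.00 ± 0.12 in senescent FAPs (SD, n = 3 each). Every control library was above every senescent library, and the difference of −0.37 had p = 0.1 in the two-sided exact permutation test (adjusted p = 0.1 over 4 ratios), the smallest it can give.

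Mre11a encodes the nuclease of a complex with RAD50 and NBN that trims DNA ends still carrying protein. It had 24.1, 28.7 and 23.2 CPM in control and 15.7, 18.4 and 19.0 CPM in senescent FAPs, and the groups were apart. The means were 25.3 ± 2.98 and 17.7 ± 1.76 CPM (SD, n = 3 each), and the log2 fold change was −0.50 (SE 0.12, 95% interval −0.78 to −0.22, limma adjusted p = 0.0120). With library totals it was −0.30 (adjusted p = 0.0884, the upper end of a range from 0.00355 over the alternatives in limma, edgeR and DESeq2).

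Both partners of MRE11 were measured. Nbn, the subunit that recruits the ATM kinase, had 21.9, 26.6 and 23.6 CPM in control and 15.4, 14.4 and 18.4 CPM in senescent FAPs, and it fell by a log2 fold change of −0.57 (limma adjusted p = 0.00842). Rad50, the ATPase that bridges DNA ends, had 27.7, 32.2 and 26.8 CPM in control and 30.5, 32.4 and 31.7 CPM in senescent FAPs, where the groups overlapped (0.13, limma adjusted p = 0.300). With library totals Rad50 was at 0.34 and passed the threshold (limma adjusted p = 0.0257, the lowest of a range up to 0.612 over the alternatives). Differences between Rad50, Nbn and Mre11a were not themselves tested.

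Among 13 further genes of adduct removal and single-strand repair, Nbn and Rad50 included, 6 fell, 1 rose and 6 did not pass the test in limma. Their median log2 fold change was −0.28. Beside this, 24.3% of all genes tested fell and 21.8% rose. Brca1, which acts in end resection and recombination, had 9.80, 14.9 and 7.49 CPM in control and 2.30, 2.64 and 2.66 CPM in senescent FAPs (−1.84, limma adjusted p = 9.32e-04). Parp1, the sensor of DNA breaks that makes poly(ADP-ribose), had 69.8, 74.3 and 59.8 CPM in control and 28.1, 24.9 and 24.8 CPM in senescent FAPs (−1.37, limma adjusted p = 1.79e-04). Lig3, the ligase of single-strand repair, had 64.6, 57.5 and 60.9 CPM in control and 36.7, 33.5 and 31.7 CPM in senescent FAPs (−0.84, limma adjusted p = 4.19e-04). For each of these 3 genes the groups lay well apart, and 30.9% of all genes tested were apart and lower. Of the 3, Brca1 and Parp1, like Top2a, were highest among controls in replicate 2, whereas Lig3 was lowest there. Of the 10 genes, Top2b, Top1, Tdp1, Mre11a, Abcb1a and Abcg2 also had this peak, and Tdp2, Abcb1b and Abcc1 did not. The other genes of the 13 that fell were Nbn, Rbbp8 (CtIP, which works with MRE11, −0.65) and Rnf4 (a ubiquitin ligase for SUMO-marked proteins, −0.40). Zfp451, a SUMO ligase that works with TDP2, was the gene that rose (0.32, limma adjusted p = 0.0404), and the count of genes that rose was 0 without control replicate 1 or 3 or senescent replicate 2 or 3.

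Genes that rejoin ends directly were mixed. Of 7 tested, 2 rose, 1 fell and 4 did not pass the test in limma, beside 21.8% and 24.3% of all genes that rose and fell. Xrcc6, which encodes Ku70, had 29.9, 27.6 and 26.4 CPM in control and 19.4, 17.2 and 16.3 CPM in senescent FAPs (−0.65, limma adjusted p = 0.00203). Prkdc, the kinase that Ku recruits, had 13.2, 15.3 and 13.5 CPM in control and 17.9, 17.9 and 19.7 CPM in senescent FAPs (0.39, limma adjusted p = 0.0183). Xrcc4, the partner of DNA ligase IV, had 5.80, 6.85 and 6.68 CPM in control and 7.78, 8.78 and 9.97 CPM in senescent FAPs (0.43, limma adjusted p = 0.0384). All 3 had groups apart, as did 57.4% of all genes tested. Both rises lost the call without control replicate 1 or 3 or senescent replicate 2 or 3. The count of genes that rose was then 0.

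**Figure D4:**
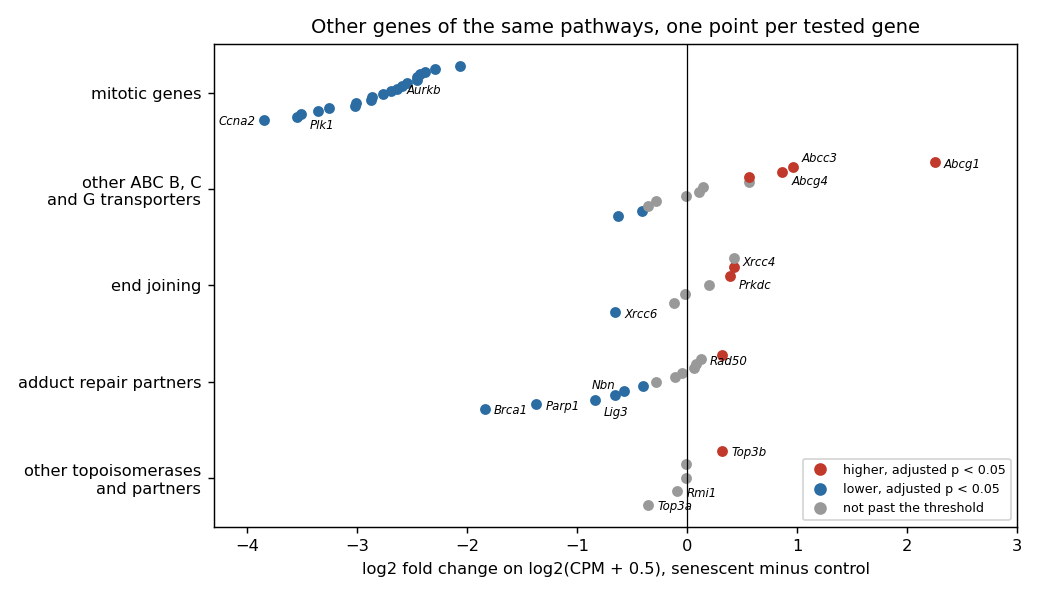
Log2 fold changes (x axis, log2(CPM + 0.5), senescent minus control) of the tested genes of 5 lists, 1 point per gene; red rose, blue fell and grey did not pass the limma threshold. All 20 mitotic genes lie at −2.06 or below, the adduct repair partners lie from −1.84 to 0.32, and Abcg1 stands apart at 2.25 among the other ABC transporters.

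Of the drug pumps, the pair of P-glycoprotein genes was higher in every senescent library than in any control library. Abcb1a had 2.59, 5.04 and 3.64 CPM in control and 9.91, 13.5 and 14.7 CPM in senescent FAPs, from 116 to 809 reads per library. Every senescent library was well above every control library. The means were 3.76 ± 1.23 and 12.7 ± 2.51 CPM (SD, n = 3 each), a 3.39-fold difference, and the log2 fold change was 1.66 (SE 0.24, 95% interval 1.10 to 2.22, limma adjusted p = 0.00154). Of all genes tested, 325 (2.20%) had a log2 fold change as high or higher, whether or not they passed the threshold. When each library was left out in turn, it stayed between 1.45 and 1.87.

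Abcb1b had 16.0, 20.5 and 21.4 CPM in control and 21.9, 24.3 and 26.5 CPM in senescent FAPs. The groups were apart by a narrow margin, since control replicate 3 lay just below senescent replicate 1. The means were 19.3 ± 2.85 and 24.2 ± 2.30 CPM (SD, n = 3 each), and the log2 fold change of 0.33 (SE 0.13, 95% interval 0.02 to 0.64) did not pass the threshold (limma adjusted p = 0.0791). With the replicate number as a block in the fit, the adjusted p was 0.0251, and over the alternatives in limma, edgeR and DESeq2 it ranged from 0.0156 to 0.223. The gene therefore passed or missed the threshold according to the method.

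Within a library, Abcb1a per base of transcript was 0.139, 0.212 and 0.147 times Abcb1b in control and 0.391, 0.480 and 0.480 times Abcb1b in senescent replicates 1, 2 and 3. Abcb1b thus stayed the more abundant of the pair in each library. The log2 ratio of the CPM values went from −2.25 ± 0.28 to −0.92 ± 0.16 (SD, n = 3 each), a difference of 1.33 with p = 0.1 (two-sided exact permutation test, adjusted p = 0.1 over 4 ratios), the smallest it can give.

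**Figure D5:**
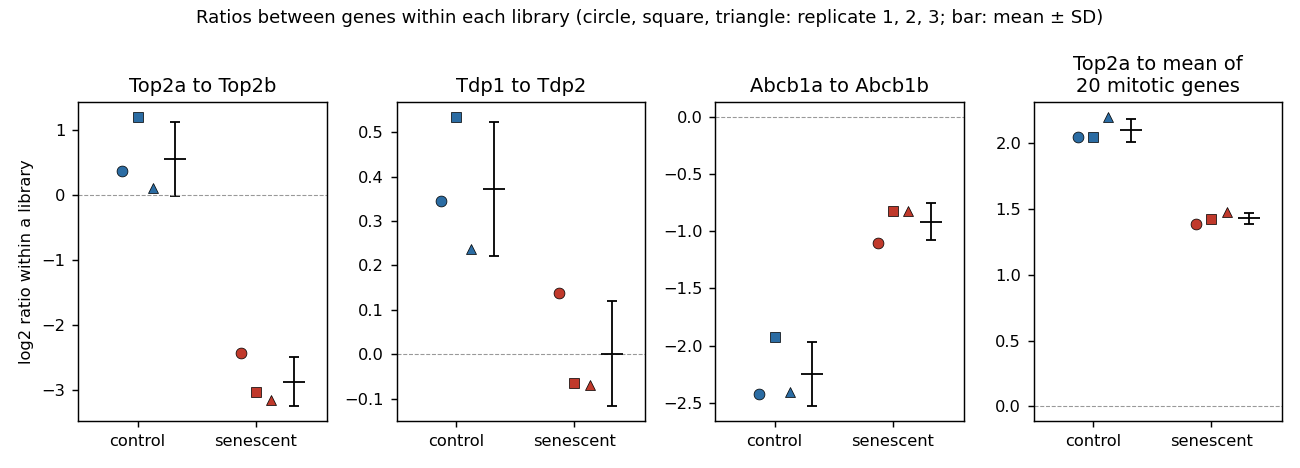
Log2 ratio of the CPM + 0.5 values of 2 genes within each library (y axes), and of Top2a to the mean of 20 mitotic genes, in control (blue) and senescent (red) FAPs; circle, square and triangle are replicates 1, 2 and 3, bars are the mean with its SD, and the dashed line marks equal CPM. The groups are apart in all 4 panels, by −3.43, −0.37, 1.33 and −0.67.

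Reads of Abcb1a and Abcb1b are not always distinct. Both coding sequences have 3828 bases and are 88.2% identical over 3816 aligned bases. Of all 50-base windows, 15.5% of those in the longest coding transcript of Abcb1a and 18.0% of those in Abcb1b occur in both, and the longest run they share has 338 bases. How the authors assigned such reads is not given in the sources used here, so part of either value may belong to the other gene. A stretch of 135 bases of that run is shown to let the likeness be seen, at bases 1519 to 1653 of the coding sequence of Abcb1a and 1528 to 1662 of that of Abcb1b (GENCODE M21, GRCm38). Capitals mark the codons of the signature motif of ABC proteins, where ATP is bound.
Abcb1a and Abcb1b: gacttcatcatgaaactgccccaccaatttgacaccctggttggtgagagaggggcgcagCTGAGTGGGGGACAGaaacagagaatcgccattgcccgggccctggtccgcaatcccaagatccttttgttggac

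Abcc1, which encodes the multidrug resistance-associated protein MRP1, had 244, 200.3 and 217 CPM in control and 202, 163 and 159 CPM in senescent FAPs. The groups overlapped, because senescent replicate 1 was above control replicate 2. The means were 221 ± 22.2 and 175 ± 24.0 CPM (SD, n = 3 each). Its log2 fold change of −0.34 (SE 0.12, 95% interval −0.61 to −0.07) passed the threshold by little (limma adjusted p = 0.0459). The call was lost in 9 of 16 alternatives, among them edgeR (adjusted p = 0.0719), DESeq2 (adjusted p = 0.0614) and the fits without control replicate 1 or 3 or senescent replicate 2 or 3 (adjusted p = 0.126, 0.0992, 0.150 and 0.150). Over all alternatives the adjusted p ranged from 0.00829 to 0.375.

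Abcg2, which encodes the breast cancer resistance protein, a pump of stem and progenitor cells, had 34.9, 60.7 and 41.3 CPM in control and 42.2, 57.7 and 61.4 CPM in senescent FAPs. The groups overlapped, with control replicate 2 among the highest values. The means were 45.7 ± 13.5 and 53.8 ± 10.2 CPM (SD, n = 3 each), and the log2 fold change was 0.25 (SE 0.22, 95% interval −0.25 to 0.76, limma adjusted p = 0.367). Without control replicate 2 it was 0.48 (limma adjusted p = 0.0406), the lowest of a range up to 0.781 over the alternatives.

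Among other transporters of the B, C and G subfamilies the direction was mixed. Of 14 listed, 12 were tested, of which 4 rose, 2 fell and 6 did not pass the test in limma. Of all genes tested, 21.8% rose and 24.3% fell. The median log2 fold change of the 12 was 0.13. With library totals 7 rose and none fell, and 1 fell in edgeR. The count that fell was 0 without control replicate 3 or senescent replicate 3. It was 1 without control replicate 1 or senescent replicate 1 or 2. Abcg1, an exporter of cholesterol, had 0.937, 1.64 and 0.556 CPM in control and 6.59, 6.71 and 6.30 CPM in senescent FAPs (2.25, limma adjusted p = 5.52e-04). Abcc3, an exporter of organic anions, had 5.04, 4.28 and 3.72 CPM in control and 8.36, 10.2 and 8.21 CPM in senescent FAPs (0.96, limma adjusted p = 0.00244). Abcg4, a relative of Abcg1, had 0.268, 0.285 and 0.377 CPM in control and 0.814, 0.887 and 1.26 CPM in senescent FAPs (0.87, limma adjusted p = 0.00552). At such low levels the pseudocount sets much of the log2 fold change of Abcg4, which was 1.39 with a pseudocount of 0.1, 0.60 with 1, 1.68 in edgeR and 1.70 in DESeq2. In each of these 3 genes all senescent libraries were above all control libraries, as in 26.5% of all genes tested. The remaining rise was that of Abcb9 (0.57), and Abcb6 (−0.63) and Abcb10 (−0.41), of the mitochondrial branch, fell.

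Compared per kilobase of the longest coding transcript, the order of the 10 genes differed between the groups mainly in the place of Top2a. In control FAPs, the mean level in CPM per kilobase was 34.3 for Top2a, 32.5 for Abcc1, 22.5 for Top1, 11.0 for Top2b, 8.70 for Tdp1, 7.99 for Abcg2, 6.91 for Tdp2, 4.48 for both Abcb1b and Mre11a, and 0.752 for Abcb1a. Neighbours whose libraries overlapped were Top2a and Abcc1, Tdp1 and Abcg2, Abcg2 and Tdp2, and Abcb1b and Mre11a.

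In senescent FAPs the order was Abcc1 (25.7 CPM per kilobase), Top1 (18.0), Top2b (10.5), Abcg2 (9.41), Tdp2 (6.45), Tdp1 (6.20), Abcb1b (5.62), Mre11a (3.13), Top2a (2.80) and Abcb1a (2.55). Here the libraries of Top2b and Abcg2, of Tdp2 and Tdp1, of Tdp1 and Abcb1b, of Mre11a and Top2a, and of Top2a and Abcb1a overlapped. Top2a thus went from rank 1 to rank 9 of 10, also with the length of all exons joined in place of the longest transcript. With that other length Tdp1 stood at rank 9 in control and 10 in senescent FAPs. In senescent FAPs Abcb1a then stood at rank 8, and Top2b at rank 2, above Top1 at rank 3. The order of several genes, the last places included, thus depends on the length taken.

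Patterns like that of Tdp2 were rare and those like Abcb1b more common. Over the 6 libraries, the genes with the highest Pearson r to Tdp2 were Ubac2, a protein of the endoplasmic reticulum (0.987), Uba1, the main ubiquitin-activating enzyme (0.969), and Amd2, an enzyme of polyamine synthesis (0.963), and 6 genes had r over 0.95. The log2 fold changes of these 3 genes were −0.06, −0.01 and −0.23, and the signs of the first pair turned with the scaling. Amd2 had only 0.536 to 1.035 CPM, near the pseudocount. Its log2 fold change was −0.36 with a pseudocount of 0.1 and −0.165 with 1. For Abcb1b the highest were Ankrd42 (0.998), Vps36 (0.996) and Chmp2b (0.993), the latter pair being subunits of the ESCRT machinery that sorts membrane proteins, and 153 genes had r over 0.95. Their log2 fold changes were 0.42, 0.25 and 0.14, and none of the 3 passed the limma threshold. Ankrd42 and Vps36 passed it with the replicate number as a block (limma adjusted p = 0.0309 and 0.0284), and all 3 passed it with library totals (limma adjusted p = 0.0283, 0.0144 and 0.0149, the lowest over their alternatives). These values of r describe the 6 libraries, which differ in depth and in group, and carry no test.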

How the data were processed

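The 3 control and 3 senescent RNA-seq libraries of FAPs (TruSeq Stranded mRNA) were grouped by their labels. The members and gene lists were chosen with earlier results of these data known. The authors deposited 1 table of CPM computed by edgeR (edgeR 3.10, R 3.6.0 and mm10 per the submitters' processing notes); the aligner, the counting tool, the annotation and the use of strand are not given in the sources used here. Each deposited value is a signal: reads divided by edgeR's effective library size, in CPM. Scaling factors were 0.917 to 0.940 in control and 1.07 to 1.09 in senescent libraries, and 100% of values were whole reads within 0.1. The plan assumed CPM, and its test was kept. 1 of 16895 lines named no gene (0.0041% to 0.0070% of reads) and was left out; 22 symbols read as dates.

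Differences were tested with limma 3.58.1 (R 4.3.3) with a variance trend, on log2(CPM + 0.5), for genes that reached 0.5 CPM in 3 or more libraries, two-sided with Benjamini-Hochberg adjustment over 14776 genes. The labels do not say that replicates came from separate animals or separate cultures. The p-values thus set differences between groups against the spread between these libraries only. Replicates differed by a chi-square of 15.1 to 154.5 per gene, more than sampling noise. Same-numbered libraries of the groups deviated together (correlations 0.54, 0.31 and 0.21 against −0.36 to 0.15 for other pairs), so the replicate number was used as a block in an alternative fit. Ratios were tested by exact permutation over libraries. Alternatives were pseudocounts of 0.1 and 1, no filter or 2 CPM, library totals, median-of-ratios and quantile scaling, each library left out, the block, and edgeR 4.0.16 and DESeq2 1.42.0 on recovered reads; the joined length of all exons was added after the values were seen. Named genes are the 10 members, the 3 lowest p of every list, Rad50, Nbn, and the 3 genes most like Top2a, Tdp2 and Abcb1b; others were named after their values were seen. Scripts were tested on simulated data. Sequences came from RefSeq (GRCm38.p6) and GENCODE M21, read with Biopython 1.88.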

Additional observations from a re-analysis of the deposited data

How the results depend on the processing

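Over 16 alternatives, 137 of 160 values of the 10 genes kept their direction and side of the threshold, 16 lost the call, 4 gained it and 3 changed sign. Top2a and Abcb1a were called in all of them, in limma, edgeR and DESeq2. With library totals, 4992 genes were higher and 1929 lower (main 3218 and 3592), and 2 of the 10 genes were higher and 1 lower. Quantile normalization left 3 lower, and DESeq2 gave 2 higher. With the replicate number as a block, 2 were higher (Abcb1b was added, adjusted p = 0.0251 in limma) and 5 lower, no other call among the 10 genes changed, and Ankrd42 and Vps36 were the other named genes that gained the call; over all genes 3576 were higher and 3947 lower. In the ratios, the paired test on the 3 differences gave p = 0.25 for each (exact sign-flip test), the smallest it can give.

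Leaving out 1 library at a time gave 2130 to 3405 genes higher and 2416 to 3875 lower, and 1 to 2 of the 10 genes higher and 2 to 5 lower. The Top2a to Top2b difference lay between −3.66 and −3.11, Tdp1 to Tdp2 between −0.44 and −0.29, Abcb1a to Abcb1b between 1.24 and 1.50, and Top2a to the mitotic genes between −0.70 and −0.62. The lowest count of higher genes, 2130, came without senescent replicate 2.

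The log2 fold changes that changed sign were, with library totals, Top2b (0.15), Tdp2 (0.11), Rmi1 (0.11), Uba1 (0.20) and Ubac2 (0.15); with quantile normalization, Top2b (0.043), Uba1 (0.23) and Ubac2 (0.0077); for Uba1, also median-of-ratios factors (0.0081), edgeR (0.016) and DESeq2 (0.028); and for Rmi1, leaving out senescent replicate 1 (0.011, in a range from −0.19 when each library was left out). None of these passed the threshold except Uba1 with quantile normalization (limma adjusted p = 0.0323). The cause was not tested. The fold change of Abcb1a rests on 116 reads in its lowest library. With 3 libraries a group, small changes such as those of Top1, Tdp1 and Abcc1 lie near the limit of what could be called.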
